A study of Mus musculus with 2 samples.

Results

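The primary cilium is an antenna-like projection that most cells carry on their surface, and 35 genes that build or use it were followed here in single cells of the mouse bile duct. They were chosen by name from the parts of the organelle: 14 genes of intraflagellar transport, 9 of the Bardet-Biedl (BBS) group, 7 of the transition zone, the 3 polycystic disease genes Pkd1, Pkd2 and Pkhd1, and 2 further genes, of which the motor gene Kif3a is described. Of these, 34 had at least 20 UMIs (unique molecular identifiers, each counting 1 captured transcript) over both libraries, as did 15347 of the 55415 genes listed in all. The member left out was Bbs10, with 18 UMIs in the biliary cells.

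Biliary epithelial cells of mouse liver were profiled in 1 library with the genotype label Sox9cKO and 1 with the genotype label Sox9con. Sox9 is a transcription factor of bile duct cells, and cKO is taken to stand for a conditional knockout of it. The Cre line, the allele, the age, the strain and any treatment are not given in the sources used here, and neither is what Sox9con carries. Fixed cells were barcoded in rounds of splitting and pooling, and the wells of the first round held 1 library each, 5 wells for Sox9cKO and 4 for Sox9con. Since each genotype is a single library, the genotypes could not be tested and p-values are absent. Intervals are exact 95% intervals and cover counting error only. The wells are parts of 1 library each and show technical spread; wells and libraries cannot be told apart.

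The cilium grows from a basal body. Intraflagellar transport complexes B and A carry cargo outward and back along its microtubules, kinesin-2 (with the subunit KIF3A) drives the outward run, and the BBSome, a coat-like complex, moves membrane proteins out of the cilium. The transition zone at its base acts as a gate. In bile ducts the cilium faces the lumen and senses flow and bile composition. Mutations in PKHD1, which encodes fibrocystin, and in the polycystin genes PKD1 and PKD2 cause cysts of the kidney and of the bile ducts. RFX transcription factors bind the X-box, a palindrome-like motif in promoters of many ciliary genes.

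Because that motif joins many of these genes, their promoters were read first. The X-box was searched on both strands as GT, 2 bases of any kind, CC, 3 of any kind, G, 1 of any kind and AAC, in RefSeq windows of 300 bases (250 before and 50 after the gene start, build GRCm38.p6), which were found for 32 of the 35 members. A match was present in 8 of 32 members (25%), in 10 of 88 other ciliary genes (11.36%) and in 673 of all 27025 genes with a window (2.49%). Among the members, the matches lay in 3 of 7 transition zone promoters, 3 of 9 BBS promoters and 2 of 11 intraflagellar transport promoters, and in none of the 3 polycystic disease or the 2 remaining promoters. The matching windows are shown in the direction of the gene, with the matched bases in capitals. For Tctn2, Bbs1, Ift57 and the first match of Ift22, the motif is read on the strand opposite to the one printed.
Tctn1: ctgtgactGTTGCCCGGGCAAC
Tctn2: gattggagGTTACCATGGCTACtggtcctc
Nphp4: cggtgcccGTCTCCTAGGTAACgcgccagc
Bbs1: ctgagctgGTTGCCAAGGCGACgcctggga
Bbs4: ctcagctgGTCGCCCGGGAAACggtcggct
Bbs7: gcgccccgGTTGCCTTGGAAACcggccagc
Ift22, first match: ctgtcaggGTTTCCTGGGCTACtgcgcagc
Ift22, second match: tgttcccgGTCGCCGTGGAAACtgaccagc
Ift57: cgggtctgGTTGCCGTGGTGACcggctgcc
These windows are, in the same order, chr5:122264411-122264432 (minus strand), chr5:124598679-124598708 (plus), chr4:152477903-152477932 (plus), chr19:4906605-4906634 (minus), chr9:59353464-59353493 (minus), chr3:36613489-36613518 (minus), chr5:136908079-136908108 (plus), chr5:136908109-136908138 (plus) and chr16:49699199-49699228 (plus). The Tctn1 and Bbs7 matches fit this degenerate motif on both strands. A match describes letters in a window and not a bound site.

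The Sox9cKO library held 2740 cells with a median of 5020 UMIs, and the Sox9con library 3622 cells with a median of 3161; they shared no cell barcode. After filtering, 2610 and 3380 cells formed the biliary fraction, with 14405377 and 12204578 UMIs, and 83 and 114 cells formed an endothelial-like cluster, with 252440 and 346523 UMIs. All 12 biliary markers in the biliary fraction and all 12 endothelial markers in the endothelial-like cells were at 50 CPM (a gene's UMIs scaled to a common library total) or more in both libraries. The biliary fraction is what remained once the endothelial-like cluster and 28 unnamed cells were set aside, and its clusters are called by number, since 1 of them (cluster 1) is led by the mesothelial marker Msln. Sox9 itself checks the labels: it was at 122 CPM in the library labelled Sox9cKO and at 145 CPM in the library labelled Sox9con, and its range over wells (102 to 145 against 74.3 to 220 CPM) overlapped. The Sox9 transcript count therefore does not separate the wells by label, and where in the gene a deletion would lie is not given in the sources used here. Directions below are between the 2 labelled libraries.

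Across all 34 members the library ratio (log2 of Sox9cKO over Sox9con CPM in the biliary fraction) had a median of 0.09, against -0.10 over all tested genes. It was above 0 for 23 of 34 members (67.6%), against 40.3% of all tested genes. The counting interval lay above 0 for 9 members, where 17.6% of all tested genes did so, and below 0 for 7, where 29% did. Over genes with at least 100 UMIs, which 33 members had, these shares were 20.9% and 34.5%. At least 1.5-fold higher in Sox9cKO, with an interval above 0, were 3 members (6.88% of all tested genes), and at least 1.5-fold lower were another 3 (12.5%). The member median rested on the scaling: it was 0.17 with TMM factors and 0.19 with DESeq2 size factors, which shift every ratio by 0.08 and 0.10.

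**Figure D1:**
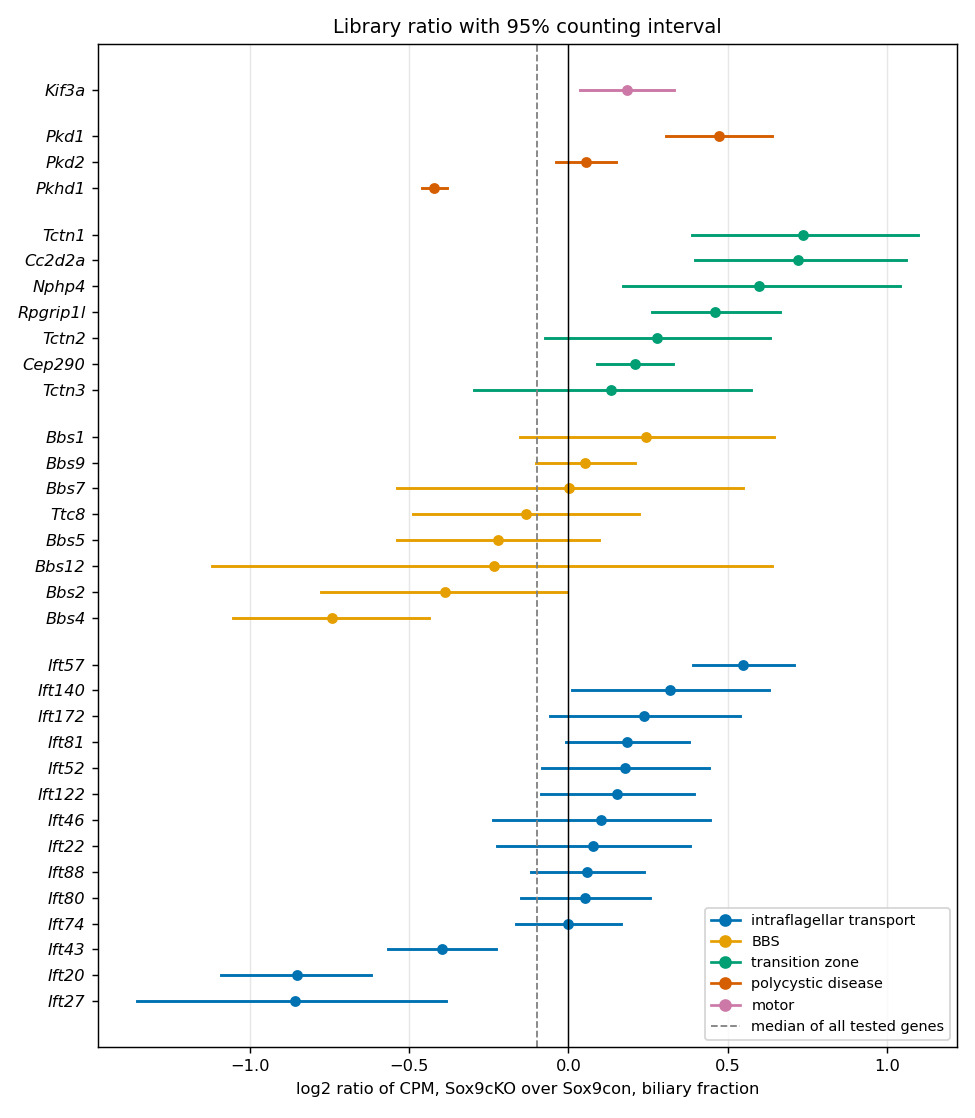
Log2 ratio of CPM, Sox9cKO over Sox9con, in the biliary fraction for 33 of the 34 members (points) with exact 95% counting intervals (lines), coloured by group; the dashed line is the median of all tested genes (-0.10). All 7 transition zone genes lie right of 0, while Ift20, Ift27 and Bbs4 lie farthest left.

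The transition zone stood highest of the 5 groups, with a median ratio of 0.46, all 7 members above 0 and 5 of the 7 intervals above 0. The 3 members called higher at plain CPM scaling all belong to it. With TMM or DESeq2 scaling the transport gene Ift57 was called higher too, as it was without well A11 or D11. Pkd1 was called with each cell thinned to 2000 UMIs, and Bbs1 without well D9. Cc2d2a, a scaffold of the gate, was at 17.0, 17.7, 14.4, 16.9 and 12.8 CPM in the 5 Sox9cKO wells and at 11.3, 8.97, 8.88 and 8.57 CPM in the 4 Sox9con wells. These wells did not overlap, and Cc2d2a was the only member higher in every Sox9cKO well (6.03% of all tested genes were); its ratio was 0.72 (0.40 to 1.06) from 228 and 117 UMIs. Tctn1, a tectonic protein of the same gate complex, had 201 and 102 UMIs, a ratio of 0.74 (0.39 to 1.10). Its wells overlapped, from 8.62 to 20.3 CPM in Sox9cKO and from 4.67 to 11.5 CPM in Sox9con. Nphp4, a nephrocystin, was at 8.82 against 5.82 CPM, a ratio of 0.60 (0.17 to 1.04), with overlapping wells.

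Rpgrip1l, which anchors the gate to the basal body, had a ratio of 0.46 (0.26 to 0.66), and in 18 of the 20 pairings of wells across the libraries it was higher in Sox9cKO. Cep290, the most abundant per kb of transcript among the transition zone genes with a length, was at 94.6 against 81.9 CPM, a ratio of 0.21 (0.09 to 0.33), with overlapping wells. For Tctn2 (0.28) and Tctn3 (0.13) the intervals held 0. Of the 25 other transition zone and nephronophthisis genes, all with 20 UMIs or more, 5 had intervals above 0 (17.6% of all tested genes). In 3 the interval lay below 0 (29%), and the median ratio of the 25 was 0.07. Among those with at least 50 UMIs, Tmem107 was called lower, at 3.26 against 5.16 CPM, a ratio of -0.66 (-1.24 to -0.09).

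Several calls in the transition zone rest on a few wells. Nphp4 was no longer called without any 1 of the wells B1, B2, B3, D10 or D11, nor was Tctn1 without well A12; Cc2d2a was called without each well in turn. With each cell thinned to 2000 UMIs, Cc2d2a (0.55) and Nphp4 were not called. Only clusters with cells of both libraries enter the equal mix of the biliary clusters. At this mix the call of Cc2d2a remained, with a ratio of 0.71, and the ratios of Tctn1 (0.49) and Nphp4 (0.51) fell short of 1.5-fold.

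Intraflagellar transport genes were found on both sides of 0. Their median ratio was 0.09, with intervals above 0 for 2 of 14 (17.6% of all tested genes) and below 0 for 3 (29%). Ift57, a complex B subunit, was at 62.7 against 42.9 CPM, a ratio of 0.55 (0.39 to 0.71). It was higher in all 8 sublibraries and in 19 of 20 well pairs. Sublibraries here are sets of cells that share a suffix of the cell barcode, each with cells of both libraries. Ift140 of complex A had a ratio of 0.32 (0.01 to 0.63), but it was at -0.23 with each cell thinned to 2000 UMIs and at -0.10 at an equal mix of clusters, so that its sign was not stable.

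At the other end, Ift20 and Ift27 were the lowest of all members. Ift20, which also carries cargo from the Golgi to the cilium, was at 17.3 against 31.2 CPM, a ratio of -0.85 (-1.09 to -0.62). Its wells ran from 12.8 to 26.6 CPM in Sox9cKO and were at 17.1, 39.4, 44.9 and 31.3 CPM in Sox9con, so that well D9 lay inside the Sox9cKO range and the other 3 above it. Ift27, a small GTPase that links the transport complexes to the BBSome, was at 4.23 against 7.70 CPM, a ratio of -0.86 (-1.35 to -0.38), again with well D9 (3.32 CPM) apart from the other Sox9con wells (9.23 to 11.2 CPM). Its partner Ift25, listed as Hspb11 and outside the 35, was at 5.90 against 10.4 CPM, a ratio of -0.81 (-1.23 to -0.41). Ift43 of complex A, at 38.1 against 50.1 CPM, was less far apart (-0.40) and yet lower in every Sox9cKO well. For the remaining 9 transport genes, among them Ift88 (0.06), Ift172 (0.24) and Ift122 (0.15), the intervals held 0.

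In the BBS group 8 genes passed, with a median ratio of -0.18. Intervals lay below 0 for 2 of them, near the share of all tested genes (29%), and above 0 for none (17.6%). Bbs4, a BBSome subunit, was at 10.6 against 17.8 CPM, a ratio of -0.74 (-1.05 to -0.44), and lower in 19 of 20 well pairs. At an equal mix of clusters it was at -0.49, short of 1.5-fold, whereas Ift20 (-0.73) and Ift27 (-1.13) stayed past it. Bbs2 was at 7.57 against 9.91 CPM, with the upper end of its interval just below 0. The largest count was that of Bbs9, at 53.0 against 51.1 CPM, a ratio of 0.05 (-0.10 to 0.21). The 4 other BBS genes listed (Arl6, Bbip1, Lztfl1 and Mkks) all had ratios below 0 (59.7% of all tested genes). The intervals of 3 of them lay below 0 (29%).

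**Figure D2:**
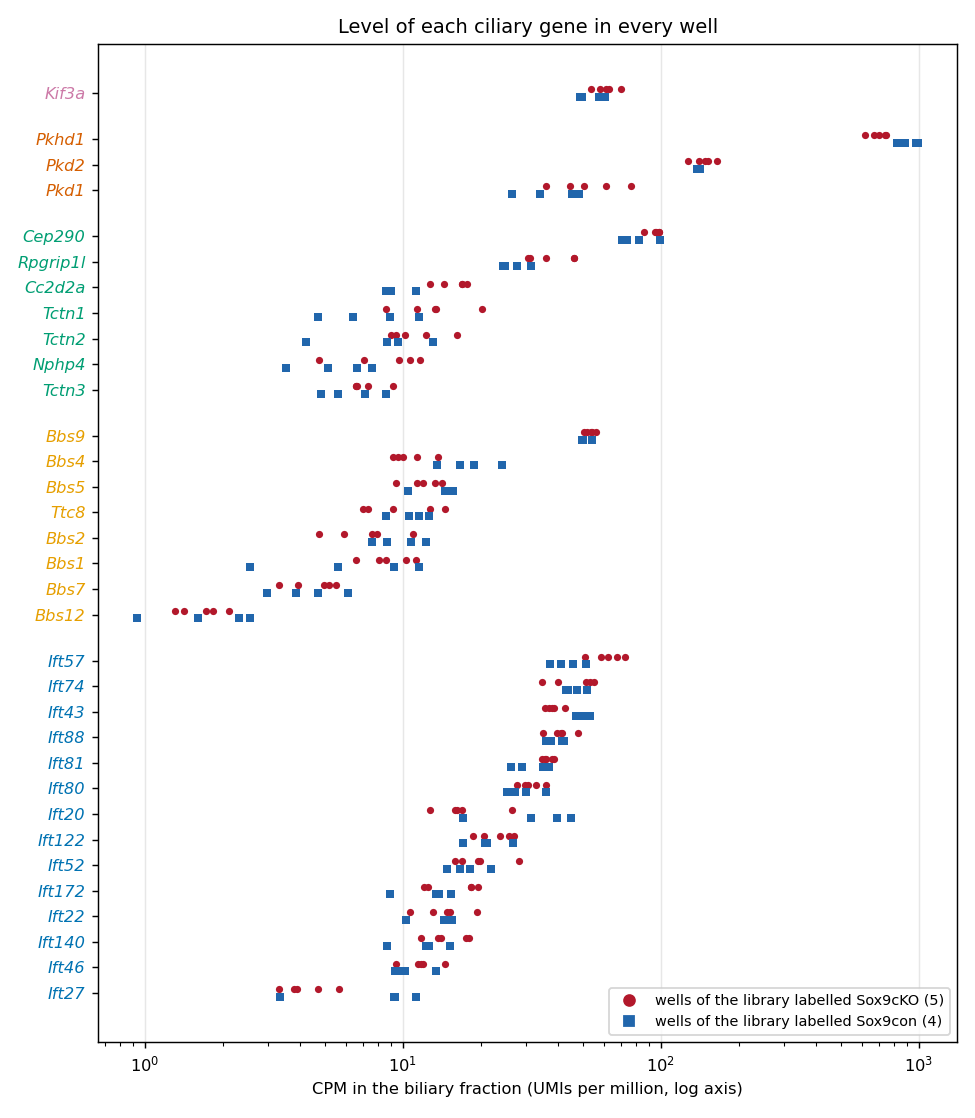
CPM in the biliary fraction (log axis) of 33 of the 34 members in the 5 wells of the library labelled Sox9cKO (circles) and the 4 wells of the library labelled Sox9con (squares), ordered by group. The wells of Pkhd1, Ift43 and Cc2d2a do not overlap between libraries; those of the other members drawn do.

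The 3 polycystic disease genes went 3 ways. Pkhd1 was the highest member in CPM and per kb of transcript, at 617, 668, 702, 743 and 739 CPM in the Sox9cKO wells and at 996, 974, 821 and 884 CPM in the Sox9con wells. Every Sox9cKO well lay below every Sox9con well, and the ratio was -0.42 (-0.46 to -0.38) from 10027 and 11373 UMIs. Thinned to 2000 UMIs per cell, 61.6% of Sox9cKO and 69.2% of Sox9con biliary cells had a Pkhd1 UMI (81.4% and 79.0% unthinned), against 7.41% and 11.4% of endothelial-like cells. The median depth of these cells was 5125 and 3226 UMIs in the biliary fraction and 2355 and 2328 in the endothelial-like cells, and thinning left out 140 and 569 biliary and 29 and 44 endothelial-like cells.

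Pkd1 was at 35.8, 50.3, 44.3, 76.4 and 61.4 CPM in the Sox9cKO wells and at 45.3, 26.6, 34.1 and 48.1 CPM in the Sox9con wells. The ranges overlapped, with 16 of 20 well pairs higher in Sox9cKO, and the ratio of the summed counts was 0.47 (0.31 to 0.64). Pkd2 was nearly level, at 145 against 139 CPM, a ratio of 0.06 (-0.04 to 0.15), and its 4 Sox9con wells lay between 138 and 142 CPM, within the Sox9cKO range of 127 to 164.

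In all, 3 members, Pkhd1 and Ift43 among them, were lower in every Sox9cKO well, where 6.82% of all tested genes were so. Kif3a was at 60.9 against 53.6 CPM, a ratio of 0.18 (0.04 to 0.33), with overlapping wells; thinned to 2000 UMIs per cell it was at -0.04. Without well D9, 6 members were lower in every Sox9cKO well, and without wells D9, D10, D11 or A11 there were 2 or 3 higher in every one. With fewer wells such a separation is easier to reach for every gene. The shares of all tested genes without these wells are not given, so these counts are not read as a result about the members.

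Levels of Pkhd1 varied more among the biliary cells than between the libraries. The fraction split into 8 clusters, made without the 35 genes, the other ciliary genes or Sox9. Pkhd1 ran from 210 CPM in cluster 4 (led by Slc28a2 and Ltf) and 356 CPM in cluster 6 (Bcl11a and Pgc) to 1559 CPM in cluster 7 (Adgrv1 and Ctnna2) and 2193 CPM in cluster 5 (Ctrc and Ryr1), a 10.4-fold range. Pkd2 ran only from 107 to 159 CPM over the same clusters, and Pkd1 from 33.1 to 58.5 CPM. The order of the clusters by Pkhd1 was most like that by Bbs4 (Spearman 0.90) and also like that by Bbs9 (0.86), and was reversed for Cep290 (-0.93) and Ift88 (-0.86). These are descriptions over 8 clusters of the same 2 libraries, which differ in depth and in the share of each library. The genes named were picked near the ends of the range over the members, and no such range over all tested genes is given. Bbs4 had 10 UMIs in cluster 4, its lowest.

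**Figure D3:**
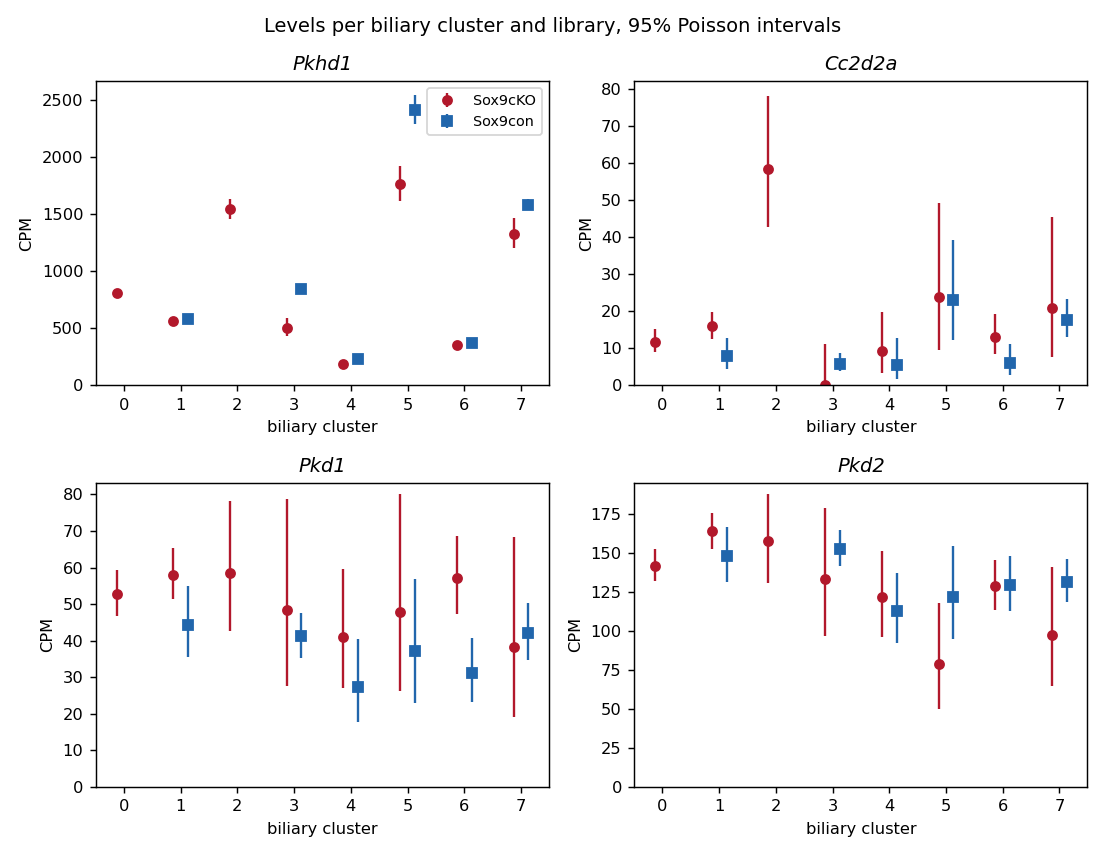
CPM of Pkhd1, Cc2d2a, Pkd1 and Pkd2 in the 8 clusters of the biliary fraction by library, with exact 95% Poisson intervals; a library with fewer than 50 cells in a cluster is not drawn (Sox9con in clusters 0 and 2). Pkhd1 differs more between clusters (210 to 2193 CPM over both libraries) than between libraries.

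The libraries filled these clusters unequally. Cluster 0 held 837 Sox9cKO and 4 Sox9con cells, and cluster 2 held 121 Sox9cKO cells and no Sox9con cell, while clusters 3 and 7 held 1341 and 776 Sox9con against 111 and 75 Sox9cKO cells. Within the 4 clusters with at least 100 cells of each library, cluster 3 had the lowest Pkhd1 ratio, -0.75 (-0.99 to -0.53). Cluster 4 followed with -0.28 (-0.61 to 0.05), cluster 6 with -0.07 (-0.23 to 0.09) and cluster 1 with -0.03 (-0.13 to 0.07), and these 3 intervals held 0. At an equal mix of clusters Pkhd1 was at -0.23, and with clusters 0 and 2 left out at -0.76 (-0.81 to -0.71), where it passed 1.5-fold. Its size between the libraries therefore depends on which cells are counted, while its sign held in each of these.

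For the transition zone genes, at an equal mix of clusters, 6 of 7 were above 0, all but Tctn2, with a median of 0.46. Without clusters 0 and 2 their median was 0.58, with 7 of 7 above 0 and 5 of 7 intervals above 0; Cc2d2a was at 0.59, Tctn1 at 0.65 and Nphp4 at 0.62. Inside clusters, Cc2d2a was higher in Sox9cKO in cluster 1 (15.9 against 7.7 CPM) and cluster 6 (13.1 against 6.0 CPM), and was not detected among the 111 Sox9cKO cells of cluster 3, where Sox9con had 5.8 CPM (0 UMIs, taken as up to 3, allow up to 9.08 CPM). Pkd1 had an interval above 0 in clusters 1 and 6. Ift20 had one below 0 in cluster 1.

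Cluster 2, the one held by Sox9cKO alone and led by G6pc, Slc6a13 and Lgr6, had the highest level of many members: 58.5 CPM of Cc2d2a, 28.6 CPM of Tctn1, 23.4 CPM of Nphp4 and 58.5 CPM of Pkd1. Foxj1, the master regulator of motile cilia, was at 42.9 CPM there, and the 8 multiciliated cell markers summed to 151 CPM. Cluster 5, with 70 Sox9cKO and 183 Sox9con cells, had 30.3 CPM of Foxj1 and 112 CPM of these markers. Cluster 7, mostly of Sox9con cells, had 12.4 and 67.0 CPM. In the other clusters the markers summed to between 3.82 CPM (cluster 4) and 51.6 CPM (cluster 0). Over the whole biliary fraction these 8 markers, none at 50 CPM and none at 0, summed to 41.1 CPM in Sox9cKO (wells 32.1 to 46.9) and 28.1 CPM in Sox9con (wells 26.3 to 29.4). Their part in the transition zone ratios was not tested. The 12 biliary markers moved the other way, with 5880 against 8668 CPM (wells 5404 to 6317 and 7404 to 9705), which was likewise not tested. In bulk sums such as these, fewer cells of a kind and less RNA per cell cannot be told apart.

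Among the other ciliary genes, 98 of 107 passed, with a median of 0.06. Intervals lay above 0 for 24 of them (17.6% of all tested genes) and below 0 for 18 (29%). Genes of motile cilia had the highest median (0.37), with 6 of 14 intervals above 0 and none below. Dnah11, an outer arm dynein heavy chain, was at 8.05 against 1.88 CPM, a ratio of 2.07 (1.44 to 2.81), and Ccdc39, a ruler protein of the axoneme, at 8.68 against 3.28 CPM (1.39), both higher in every Sox9cKO well. Cfap44 (1.56) and Drc1 (0.78) of the motile axoneme and Foxj1, at 9.23 against 5.49 CPM (0.75), were also called higher. Adcy5, an adenylyl cyclase found in cilia, was at 4.44 against 0.74 CPM, a ratio of 2.53 (1.58 to 3.78) from 64 and 9 UMIs. In all these the counts are low, and the ratios were smaller at an equal mix of clusters: Drc1 (0.38) and Foxj1 (0.36) then fell short of 1.5-fold, and Cfap44 was at 0.64, Adcy5 at 0.87, Dnah11 at 1.10 and Ccdc39 at 1.33. As a mean over cells Drc1 (0.21) and Foxj1 (0.32) also fell short. Over all 14 motile cilium genes the median did not shrink at an equal mix. It was 0.51 there against 0.37, with 8 genes above 0 against 10.

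The 14 genes of polycystic disease outside the list were split, with a median ratio of -0.12. Intervals lay above 0 for 3 of them (17.6% of all tested genes) and below 0 for 6 (29%). Dzip1l and Bicc1, described here, were both on the higher side. Dzip1l, a transition zone protein mutated in a recessive form, was at 57.5 against 25.6 CPM, a ratio of 1.17 (0.98 to 1.36), and its Sox9cKO wells (48.5 to 68.7 CPM) lay above its Sox9con wells (14.5 to 33.8 CPM). Bicc1, an RNA-binding protein whose loss gives cysts in mice, was at 556 against 406 CPM, a ratio of 0.45 (0.40 to 0.51), with wells of 509 to 598 above 393 to 419 CPM. Sox9, at -0.26 (-0.35 to -0.16), ranged from -0.42 to 0.14 when wells were left out, and was at 0.07 at an equal mix of clusters.

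Gene length went with the library ratio over all genes. Reverse transcription used random hexamer as well as oligo(dT) primers, so that long genes can give more UMIs within a library. Whether priming bears on the ratio between the libraries was not tested. Over 15315 tested genes with a length (GENCODE M21, GRCm38, matched by identifier) the Spearman correlation of the library ratio with the genomic span was 0.26, and 0.33 with the longest transcript. The median ratio rose from -0.46 in the shortest of 10 equal-sized span bins to 0.05 in the longest. Over 33 members it was 0.21 with the span and 0.53 with the transcript. Both are descriptions across genes that share 2 libraries, and genes are not replicates.

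The members are long genes, with a median span of 46.7 kb against 25.1 kb for all tested genes. Against the median of all genes in the same span bin, the members were higher by 0.16 in the median, and 22 of 33 lay above it. Within span bins the transition zone lay above, by 0.50 in the median with 6 of 6 genes above their bin. The transport genes were at 0.17 (10 of 14 above) and the BBS group at -0.06 (3 of 8 above). Tctn2 has no matched length. The short genes Ift20 (5.38 kb) and Ift27 (14.6 kb) were below their own span bins, whose medians were -0.30 and -0.13. Bins of transcript length, the measure with the larger correlation, are not given by group or gene. Transcripts of Ift20 and Ift27 measure 1.17 and 1.57 kb, and those of the transition zone genes run from 2.74 kb (Tctn3) to 8.21 kb (Cep290). Pkhd1, with 560 kb the longest member, was at -0.42 where its bin was at 0.05. Over the 20 well pairs the member median ran from -0.08 to 0.18 and lay above the median of all genes in 20 of 20, while between wells of the same library it differed by up to 0.25. The correlation with span ran from -0.04 to 0.29 over the pairs across libraries, and from -0.26 to 0.16 between wells of the same library. Across libraries it ran from -0.04 to 0.10 in the pairs with well D9 and from 0.16 to 0.29 in the others. Within Sox9con, wells D10, D11 and D12 over D9 gave -0.19, -0.26 and -0.24.

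**Figure D4:**
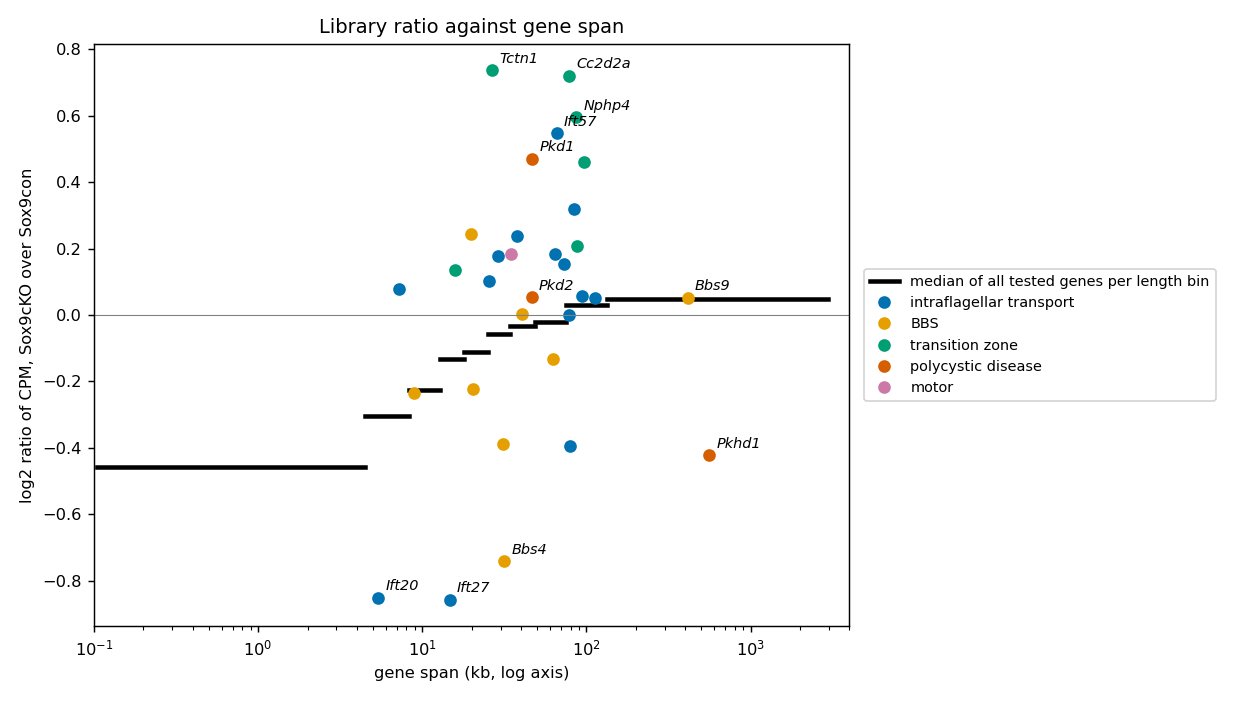
Log2 library ratio against genomic span (kb, log axis) for 32 of the 33 members with a length (points, coloured by group) and the median ratio of all tested genes in each of 10 equal-sized span bins (black bars). The bars rise from -0.46 to 0.05; transition zone genes lie above them, and Ift20, Ift27, Bbs4 and Pkhd1 below.

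Set against endothelial-like cells, most members had a higher CPM in the biliary fraction. The log2 ratio of biliary over endothelial-like CPM had a median of 1.17 over members, against 0.33 over all tested genes. At least 2-fold higher, with an interval above 0, were 15 of 34 members and 16.3% of all tested genes. Over genes with at least 100 UMIs the share was 22.1%, with 15 of 33 members. In 5 members no UMI was found in 197 endothelial-like cells; with these set to 3 UMIs the median was 0.94 (all tested genes -0.08) and 13 members passed (15.4%). The interval alone lay above 0 for 16 members (22.5% of all tested genes) and below 0 for 2 (20.2%), Ift122 and Bbs7, which were also the 2 members at least 2-fold lower (16%). The median was 1.53 within Sox9cKO and 1.10 within Sox9con. Classes come from clusters of these same cells, so no test is given.

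Pkhd1 stood apart most among the polycystic genes, at 804 against 81.8 CPM (60.5 to 108), a 9.83-fold difference. Its size differed by library, with a log2 ratio of 4.13 (3.26 to 5.20) within Sox9cKO, from 10 endothelial-like UMIs, and 3.05 (2.60 to 3.54) within Sox9con, from 39. Free RNA from broken biliary cells can add to such a count in endothelial-like cells, where the 12 biliary markers still summed to 606 and 762 CPM; its part was not tested. Pkd2, at 142 against 55.1 CPM, was 2.58-fold higher, whereas Pkd1 did not separate the classes, at 47.5 against 56.8 CPM with a ratio of -0.26 (-0.75 to 0.28). Of the transport genes, Ift81 (6.81-fold, from 3 endothelial-like UMIs, log2 ratio 1.22 to 5.06) and Ift57 (6.40-fold, log2 ratio 1.46 to 4.31) were highest, followed by Ift74 (3.44-fold), Ift43 (2.90-fold), Ift88 (2.39-fold) and Ift80 (2.29-fold). Within Sox9con alone the intervals of Ift88 (0.95) and Ift80 (0.79) held 0.

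Ift122, a complex A subunit, ran against the others, at 22.0 CPM in the biliary fraction and 53.4 CPM (36.5 to 75.4) in endothelial-like cells, where it was 2.43-fold higher. This held within both libraries, at -1.63 (-2.31 to -0.86) and -0.96 (-1.74 to -0.07). Bbs7 was 2.95-fold higher in endothelial-like cells from 8 UMIs there, and within Sox9cKO alone its interval (-3.01 to 0.92) held 0. For Bbs9 (-0.46) the interval held 0. Of the genes without an endothelial-like UMI, with 3 UMIs set in place of 0, Tctn1 was at least 2.27-fold, Ttc8 at least 2.04-fold, Bbs2 at least 1.73-fold and Nphp4 at least 1.49-fold higher in the biliary fraction; Bbs12, at 1.80 CPM, was too low for a bound. Rpgrip1l (3.27-fold) and Cep290 (2.21-fold) completed the transition zone genes with an interval above 0 and at least 2-fold.

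**Figure D5:**
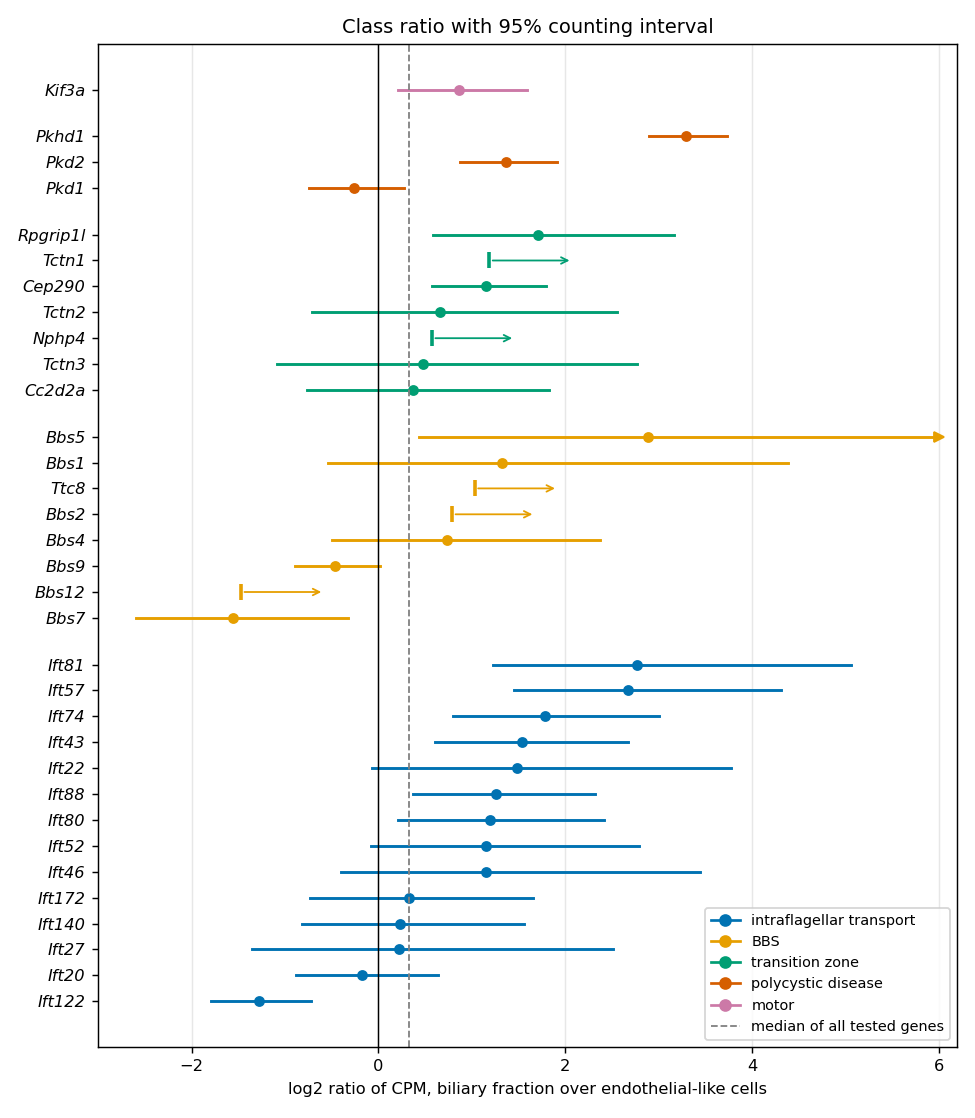
Log2 ratio of CPM in the biliary fraction over endothelial-like cells for 33 of the 34 members with exact 95% counting intervals; bars with an arrow are lower bounds for the 5 members with no endothelial-like UMI, and the triangle marks an interval that runs off the axis (Bbs5). Pkhd1, Ift81 and Ift57 lie far right and Ift122 and Bbs7 left of 0.

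Of the other ciliary genes, 33 of 98 were at least 2-fold higher in the biliary fraction with an interval above 0 (16.3% of all tested genes). At least 2-fold lower, with an interval below 0, were 10 (16%). No endothelial-like UMI was found for 22 of the 98. With counts of 0 set to 3 UMIs, 30 were at least 2-fold higher (15.4%). Bicc1 (487 against 30.1 CPM) was among the higher. Gene span bore no such relation to the class ratio, with a Spearman correlation of -0.03 over 15315 genes and 0.02 over 33 members.

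In these ratios members with and without an X-box match overlapped over most of their range. The 8 members with a match had a median library ratio of 0.26 (-0.74 to 0.74), 7 of 8 above 0, and the 23 passed members with a window and no match had a median of 0.06 (-0.86 to 0.72), 13 of 23 above 0. The class ratios, with counts of 0 set to 3 UMIs, had medians of 0.96 and 0.86.

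The counting also bears on single members. Whether it used the strand is not stated, and 17 of the 34 members overlap another annotated gene, so that reads of the pair may not be told apart: Tctn1 with Hvcn1, Nphp4 with Kcnab2, Pkd1 with Tsc2, Ift140 with Tmem204 and Bbs4 with Adpgk are such pairs. Cc2d2a, Ift20, Ift27, Ift43, Pkd2 and Ift122 overlap none.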

How the data were processed

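The authors deposited whole-number UMI counts per cell and gene for both libraries, alongside tables of genes and of cells, per the file headers; the genome is GRCm39 per the submitters' processing notes. The aligner, the annotation and the strand setting are not given in the sources used here. The members, gene lists and markers were chosen with earlier results of these data known. Cells needed 500 genes, 1000 UMIs and at most 15% mitochondrial UMIs. Scrublet (scanpy 1.11.5) marked 5 of 6362 cells (0.0786%), too few to have worked. Cells were clustered (2000 variable genes, 30 components, 15 neighbours, resolution 0.5) without members, other ciliary genes and Sox9, and named from markers at 50 CPM (at least 3 detected); a cluster whose leading genes, in at least 10% of its cells, all stood 8 or more log2 units above the rest without any marker of its class stayed unnamed, a rule set after the data were seen.

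UMIs were summed per library and class. Ratios are of CPM with 0.5 UMIs added; Poisson, binomial (Clopper-Pearson) and conditional binomial intervals are exact at 95%. Zero counts were bounded with 3 UMIs over the class. The equal mix of clusters is a Mantel-Haenszel ratio, whose interval is that of the plain ratio moved to it. Cluster 2, without Sox9con cells, does not enter it, and cluster 0, with 837 Sox9cKO and 4 Sox9con cells, has little weight. Members given in full are the 2 highest and 2 lowest library ratios of each group, plus Pkd1, Pkd2, Pkhd1 and Kif3a; other ciliary genes are those with 50 UMIs and a called ratio (at most 10), plus Sox9, Bicc1 and Foxj1. Some genes under these rules are not reported here, though counts and medians over lists include them. Nphp4, Rpgrip1l, Ift43 and other members outside that rule were named after their values were seen. Scaling alternatives used edgeR 4.0.16 (TMM) and DESeq2 1.42.0 size factors. The ratio, interval and equal mix code was tested on simulated data with known folds.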

Additional observations from a re-analysis of the deposited data

How the results depend on the processing

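No paired analysis was possible because each group is 1 library and no test was made. The wells left out in turn are parts of a library. The member median of the library ratio, 0.09, became 0.17 with TMM and 0.19 with DESeq2 scaling; by construction these shift all genes alike. The member median of biliary over endothelial-like cells, 1.17, became 1.65 with cells thinned to 2000 UMIs and 0.86 without the members that overlap another gene. Members at least 1.5-fold higher in Sox9cKO numbered 3, but 1 as a mean over cells and 1 at an equal mix of clusters. The number rose to 4 with TMM scaling, where Ift57 was added, as it was with DESeq2 scaling. Members at least 1.5-fold lower numbered 3, but 2 at an equal mix of clusters, where Bbs4 was no longer called. They numbered 5 without biliary clusters 0 and 2, an alternative chosen after seeing the data, with Pkhd1 among those added. Members higher in every Sox9cKO well numbered 1; the number was 2 with the top 5% of Scrublet scores removed, 0 when thinned, 2 without well A11, 3 without D10, 2 without D11 and 2 without D9. Members lower in every Sox9cKO well numbered 3, but 1 when thinned and 6 without D9. Leaving out a well makes this separation easier to reach for every gene, and the matching shares of all tested genes are not given. The member median above the length bin, 0.16, was 0.030 when thinned and 0.095 without A11. Except where fewer cells, wells or genes entered by construction, the cause was not tested. Of 551 values of the 29 named genes under the alternatives, 542 moved by less than the spread between well pairs and 9 by more. Of those called, 0 changed sign. Of those not called, Ift140, Tctn3 and Kif3a turned below 0 when thinned (-0.23, -0.39 and -0.04). Bbs1 without D10 (-0.05) and Sox9 without D9 (0.14) also changed sign, as did Ift140 (-0.10) and Sox9 (0.07) at an equal mix of clusters. Depth limits the endothelial-like values most: 5 members had no UMI in its 197 cells.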
